A study of Mus musculus with 10 samples.

Results

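Collagens are secreted or membrane-bound proteins whose 3 chains wind into a triple helix, and each chain is encoded by its own gene. Fibrillar collagens form the fibres of connective tissue, type IV collagens form the sheet of the basement membrane under epithelia, and other types decorate fibres, anchor them or span the cell membrane. In the gut wall fibrillar collagens are known mainly as products of fibroblasts, while epithelial cells sit on a basement membrane that contains type IV and type XVIII collagen. The genes described here are those whose symbol is Col, a number, a and a number, and that held at least 10 UMIs (unique molecular identifiers, 1 per captured transcript molecule) summed over all kept cells of 10 single-cell libraries. This rule took 38 of 44 collagen symbols among 31053 genes. Col2a1 lay just inside the minimum with 10 UMIs, and Col24a1 just outside it with 5 UMIs. The other 5 genes left out (Col10a1, Col13a1, Col22a1, Col6a4 and Col6a6) had 1 or 2 UMIs each.

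The libraries came from mouse small intestinal organoids, epithelial cultures grown from crypts in Matrigel, and from colonic crypts. ENR medium, with EGF, Noggin and R-Spondin 1, gave 3 libraries of ENR-organoids at passages 2, 7 and 3. Hyper medium gave 3 libraries at passages 1, 6 and 3 and held LDN193189, GSK-3 Inhibitor XV, Pexmetinib, EGF, R-Spondin 1 conditioned medium, FGF2, 500 µM VPA, which inhibits histone deacetylases, and 2 µM EPZ6438, an EZH2 inhibitor. For -VE-organoids (passages 1 and 6, 2 libraries) the Hyper medium was used without VPA and EPZ6438, so Hyper- and -VE-organoids differ by both agents together. The library codes of replicates 1, 2 and 3 begin with 2, 6 and C, and what these prefixes mark is not given in the sources used here. By the labels Hyper 1 and 2 and both -VE libraries were derived from ENR-organoids, and ENR 3 and Hyper 3 from primary crypts. Prefix C has no -VE library, and without Hyper 3, 12 of 20 collagen genes tested were called higher against -VE-organoids (15.1% of all genes). Donor mice of the organoids were 6 to 12 weeks old, and those of the colitis model were female and 8 weeks old. The study kept C57BL/6, Lgr5-EGFP-IRES-creERT2 and Rosa26-loxp-STOP-loxp-tdTomato mice, and which of them gave these libraries is not given in the sources used here, nor were libraries tied to single animals. The colon was sampled with 1 library of normal crypts and 1 of crypts after dextran sulfate sodium (DSS), a chemical that injures the colonic epithelium. P-values therefore measure the spread between cultures that may share donors, and none is given for the colon.

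Kept cells were those in the authors' annotation, 22139 in organoids (89124015 to 170019527 UMIs per library) and 1132 normal and 1933 DSS cells in colon (19906845 and 32397122 UMIs). No pair of libraries shared more than 5 cell barcodes. Levels are CPM, the usual scaling of a gene's UMIs to a fixed total, taken over all UMIs of the library's kept cells, and log2 fold changes with their standard errors come from edgeR's quasi-likelihood test on UMIs summed per library. Reads came from the 3′ end, so a level is not a measure per length and is compared between samples of 1 gene, not between genes. In such sums fewer cells of a type and less RNA per cell cannot be told apart. The class named stem in the annotation had a Lgr5 level of 152 CPM against 145 CPM in all other Hyper cells, 88.0 against 75.2 CPM in -VE-organoids and 103 against 48.1 CPM in ENR-organoids, so in Hyper- and -VE-organoids its defining marker hardly set it apart. Enteroendocrine, goblet and revival stem cell classes stood apart by their markers in each group in which they were present.

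Collagen transcripts were scarce in organoids and higher in Hyper-organoids. All 38 genes together held 3.003, 3.03 and 2.41 CPM in ENR 1, 2 and 3, 4.41 and 2.96 CPM in -VE 1 and 2, and 24.6, 25.7 and 22.1 CPM in Hyper 1, 2 and 3. The 3 Hyper libraries lay above all 5 others, and the ENR and -VE libraries overlapped.

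Of the 38 genes, 22 passed the filter on low counts and were tested among 16037 genes. Calls required both a 2-fold difference and an edgeR adjusted p (Benjamini-Hochberg over all genes tested) below 0.05. Against ENR-organoids 15 collagen genes were called higher and 0 lower in Hyper-organoids, where 18.2% of all genes tested were called higher, 4.75% lower and 22.9% in either direction. Against -VE-organoids 14 were called higher and 0 lower, where 16.1% of all genes were called higher, 2.51% lower and 18.6% in either direction. Without -VE 2 the latter count was 9 of 25 tested, where 11.4% of all genes were called higher. Both comparisons use the same Hyper libraries. The median log2 fold change of the 22 genes was 2.34 against ENR- and 2.38 against -VE-organoids, beside -0.01 and 0.01 over all genes. The same 13 genes were called in both comparisons, Col9a3 and Col11a2 only against ENR- and Col7a1 only against -VE-organoids, and whether those differences themselves differ was not tested. Hyper libraries lay wholly above ENR libraries for 15 of 22 genes (32.7% of all genes tested) and wholly above -VE libraries for 18 of 22 (34.2%). Genes that passed the filter through their Hyper counts had to differ, and without any filter 37 collagen genes were tested, of which 16 and 15 were called higher (14.0% and 12.1% of all genes). Col5a1 was the gene added in both. With each cell thinned to 10000 UMIs 13 collagen genes were tested and 10 called higher in each comparison (15.0% and 13.3% of all genes).

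**Figure D1:**
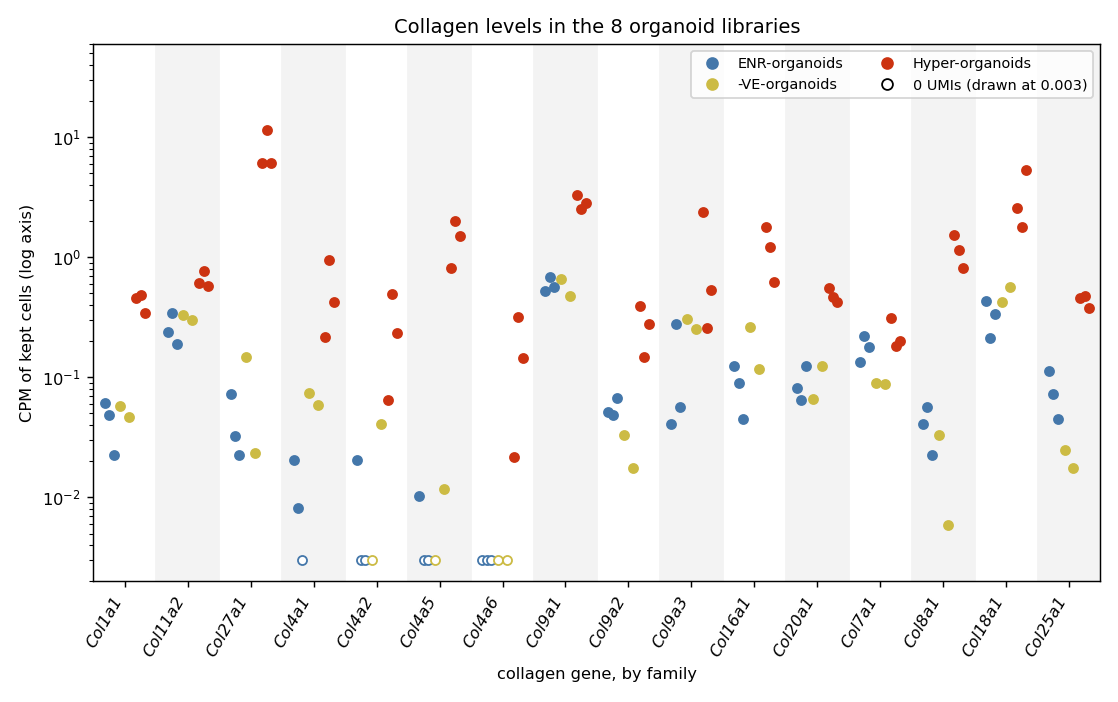
Level in CPM of kept cells (log axis) of the 16 collagen genes called in at least 1 comparison, grouped by family along the horizontal axis, with 1 point per organoid library (3 ENR-, 2 -VE- and 3 Hyper-organoid libraries) and open points for libraries with 0 UMIs. Hyper points lie above all others for most genes, while for Col9a3 and Col7a1 they overlap those of ENR-organoids.

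Among fibrillar collagens, Col27a1 showed the largest fold difference. Its product is a fibrillar collagen best known from cartilage. Col27a1 (chr4:63214004-63334991, plus strand, build GRCm38) was at 0.0720, 0.0325 and 0.0224 CPM in ENR 1, 2 and 3, at 0.148 and 0.0235 CPM in -VE 1 and 2, and at 6.16, 11.4 and 6.16 CPM in Hyper 1, 2 and 3. All 3 Hyper libraries were high and the groups did not overlap, with 3032 UMIs in Hyper- against 13 in ENR- and 22 in -VE-organoids. The log2 fold change was 7.40 ± 0.61 against ENR-organoids (edgeR's quasi-likelihood test, adjusted p = 3.16e-05) and 6.49 ± 0.66 against -VE-organoids (adjusted p = 0.000208). The UMIs lay in 2153 of 8318 Hyper cells, with at most 7 in 1 cell.

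Col1a1 encodes the main chain of type I collagen, which normally joins 2 copies with 1 copy of the Col1a2 chain. Col1a1 was at 0.0617, 0.0488 and 0.0224 CPM in ENR 1, 2 and 3, at 0.0575 and 0.0471 CPM in -VE 1 and 2, and at 0.462, 0.485 and 0.343 CPM in Hyper 1, 2 and 3. It rose by 3.11 ± 0.36 on the log2 scale over ENR-organoids (edgeR adjusted p = 0.000169) and by 2.90 ± 0.39 over -VE-organoids (adjusted p = 0.000746), with no overlap of the groups. Over their libraries Col1a2 had 2 UMIs in ENR-organoids, 6 in -VE-organoids and 5 in Hyper-organoids, too few to compare, with a ratio of CPM of 2.08 (95% counting interval 0.341 to 21.9) against ENR-organoids. Col3a1, the type III collagen gene that fibroblasts express with type I, had 5 UMIs in Hyper-organoids and 0 in both other groups. Col11a2, a chain of the minor fibrillar collagen XI, was at 0.191 to 0.342 CPM in ENR-, 0.300 and 0.328 CPM in -VE- and 0.576 to 0.774 CPM in Hyper-organoids. It rose by 1.21 ± 0.27 against ENR-organoids (edgeR adjusted p = 0.00495). Against -VE-organoids it stayed under the 2-fold limit at 0.92 ± 0.29 (adjusted p = 0.0322), and a block for code prefix moved it past that limit (1.02, edgeR adjusted p = 0.0174). With each cell thinned to 10000 UMIs the call against ENR-organoids was lost (0.69, edgeR adjusted p = 0.234). Of the other 7 fibrillar genes, Col5a1 had 22 UMIs in Hyper-organoids against 1 each in ENR- and -VE-organoids, Col11a1 had 11 against 0 and 1, and the rest had at most 6 in a group.

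The genes of the type IV collagen chains lie head to head in pairs that share the space between their starts. The pair Col4a5 and Col4a6 lies on chromosome X with 1308 bases between the starts, Col4a1 and Col4a2 on chromosome 8 with annotated 5′ ends that overlap by 22 bases, and Col4a3 and Col4a4 on chromosome 1 with 71 bases between them. Both members of the first 2 pairs were called higher in Hyper-organoids, and of the third pair Col4a4 was tested and not called (0.27 ± 0.57 and 0.63 ± 0.63). Col4a3 was not tested, with 17 UMIs in Hyper-organoids and 6 in each other group.

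Col4a5 was close to absent outside Hyper-organoids. It was at 0.0103, 0 and 0 CPM in ENR 1, 2 and 3, at 0 and 0.0118 CPM in -VE 1 and 2, and at 0.816, 1.99 and 1.496 CPM in Hyper 1, 2 and 3. Behind this stand 531 UMIs in Hyper-organoids, 1 in ENR-organoids and 2 in -VE-organoids, a ratio of CPM of 443 (95% counting interval 79.1 to 17518) against ENR- and 209 (57.5 to 1729) against -VE-organoids. The fitted log2 fold changes were 8.28 ± 0.78 (edgeR adjusted p = 5.87e-05) and 7.40 ± 0.81 (adjusted p = 0.000276). Col4a6, its head-to-head partner, had 0 UMIs in all 5 ENR and -VE libraries and 0.0217, 0.317 and 0.144 CPM in Hyper 1, 2 and 3. With 61 UMIs against a floor of 3 UMIs over each group, Col4a6 was at least 17.0-fold higher than in ENR- and at least 15.998-fold higher than in -VE-organoids (edgeR adjusted p = 0.0301 and 0.0446). These Col4a6 calls were lost when any 1 ENR or -VE library of the comparison was left out (adjusted p 0.0540 to 0.152), and without Hyper 2 or Hyper 3 the gene did not reach the test.

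Col4a1 and Col4a2 encode the chains of the network present in all basement membranes. Col4a1 was at 0.0206, 0.00814 and 0 CPM in ENR 1, 2 and 3, at 0.0739 and 0.0588 CPM in -VE 1 and 2, and at 0.217, 0.943 and 0.421 CPM in Hyper 1, 2 and 3. With 3 UMIs in ENR-organoids the ratio of CPM was 56.1 (18.9 to 274), and the log2 fold change was 5.51 ± 0.84 (edgeR adjusted p = 0.000763). Against -VE-organoids it was 2.85 ± 0.71 (adjusted p = 0.0119), a call lost without -VE 1 (0.0560) or -VE 2 (0.0926). Col4a2 ran in parallel at 0 to 0.0206 CPM in ENR-, 0 and 0.0412 CPM in -VE- and 0.0650, 0.492 and 0.233 CPM in Hyper 1, 2 and 3. Its ratio was 41.7 (11.2 to 349) against 2 UMIs in ENR-organoids, and the log2 fold changes were 5.02 ± 1.29 (edgeR adjusted p = 0.0106) and 3.33 ± 1.15 (adjusted p = 0.0429). The Col4a2 call against -VE-organoids was lost without any 1 of the ENR or -VE libraries (0.0560 to 0.166) or without the 5% of cells with most UMIs (0.0592), and Col4a2 was not tested without Hyper 2 or Hyper 3.

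The stretches just before the RefSeq start of 4 of the called genes with large fold differences are shown so that their base composition can be seen beside the levels. They are from RefSeq (GRCm38), run 5′ to 3′ on the gene's strand, stop before any exon base of the GENCODE annotation, and carry capitals at GGGCGG or its reverse complement CCGCCC, the core of the GC box.
Col27a1 (chr4:63215162-63215411, plus strand): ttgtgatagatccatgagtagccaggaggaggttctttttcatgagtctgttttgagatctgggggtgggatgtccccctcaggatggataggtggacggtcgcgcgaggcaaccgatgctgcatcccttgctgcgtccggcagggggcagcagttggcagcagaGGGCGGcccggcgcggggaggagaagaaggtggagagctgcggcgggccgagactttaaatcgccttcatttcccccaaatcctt
Col4a5 (chrX:141475169-141475384, plus strand): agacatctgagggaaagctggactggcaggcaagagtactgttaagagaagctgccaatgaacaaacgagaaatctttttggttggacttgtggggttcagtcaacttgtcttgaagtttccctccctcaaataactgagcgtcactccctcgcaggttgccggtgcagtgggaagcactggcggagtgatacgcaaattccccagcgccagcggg
Col4a6 (chrX:141474077-141474326, minus strand): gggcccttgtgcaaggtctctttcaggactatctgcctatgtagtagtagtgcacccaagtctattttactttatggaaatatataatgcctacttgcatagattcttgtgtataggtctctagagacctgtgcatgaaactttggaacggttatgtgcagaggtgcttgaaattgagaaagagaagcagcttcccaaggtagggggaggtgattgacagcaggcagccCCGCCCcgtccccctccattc
Col8a1 (chr16:57754738-57754987, minus strand): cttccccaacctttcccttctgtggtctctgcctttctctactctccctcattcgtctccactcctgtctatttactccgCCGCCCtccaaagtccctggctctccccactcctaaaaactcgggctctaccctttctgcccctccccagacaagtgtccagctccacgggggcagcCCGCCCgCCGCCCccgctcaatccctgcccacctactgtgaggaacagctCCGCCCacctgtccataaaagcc

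These windows differ from one another. That of Col27a1 lies in an intron of the gene as GENCODE annotates it, and the other 3 lie before the annotated gene. The Col8a1 stretch holds 4 GC boxes, Col27a1 and Col4a6 hold 1 each and Col4a5 holds 0. The whole Col4a5 window, which is counted below and runs on to base 141475468, does hold a GC box. The Col4a6 stretch has 3 CpG dinucleotides in 250 bases against 15 in the Col27a1 stretch, and a GC content of 47.6% against 59.6%. RefSeq promoter windows (GRCm38, 250 bases before to 50 after a start) were matched for 30 of the 38 genes and 13 of the 15 called against ENR-organoids. A GC box on either strand was in 21 of the 33 collagen windows (63.6%) and 11 of the 15 windows of called genes (73.3%), in 2 of the 5 of genes tested and not called (40%) and in 8 of the 13 of untested genes (61.5%), beside 35.7% of all 32851 windows. TATAAA was in 9.09% of collagen and 13.6% of all windows. The median count of CpG was 12 in collagen and 7 in all windows. A match of letters is a description of the window, not a bound site.

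FACIT collagens do not form fibres themselves but sit on the surface of fibrils. Of 8 genes, 6 were tested, and 5 were called higher against ENR- and 4 against -VE-organoids. Col9a1, Col9a2 and Col9a3 encode the 3 chains of type IX collagen, which coats type II fibrils in cartilage. Col9a1 was at 0.525, 0.683 and 0.561 CPM in ENR 1, 2 and 3, at 0.665 and 0.476 CPM in -VE 1 and 2, and at 3.30, 2.54 and 2.84 CPM in Hyper 1, 2 and 3. It was the steadiest of the called genes, with the smallest standard error, and rose by 2.16 ± 0.21 over ENR-organoids (edgeR adjusted p = 6.29e-05) and 2.21 ± 0.24 over -VE-organoids (adjusted p = 0.000260). Within the class named stem Col9a1 rose by 1.15 ± 0.30 and 2.05 ± 0.33. The stem call of Col9a1 against ENR-organoids was lost without ENR 1 and with each cell thinned to 10000 UMIs. Within the transit amplifying class Col9a1 rose by 1.88 ± 0.19 and 2.37 ± 0.22. Col9a2 rose by 2.14 ± 0.46 (edgeR adjusted p = 0.00441) and 3.29 ± 0.58 (adjusted p = 0.00240), from 0.0488 to 0.0673 CPM in ENR- and 0.0176 and 0.0328 CPM in -VE- to 0.148 to 0.390 CPM in Hyper-organoids.

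Col9a3 did not separate the groups. It was at 0.0411, 0.277 and 0.0561 CPM in ENR 1, 2 and 3, at 0.304 and 0.253 CPM in -VE 1 and 2, and at 2.37, 0.260 and 0.532 CPM in Hyper 1, 2 and 3. Of the libraries with prefix 6, Hyper 2 lay below ENR 2. The log2 fold change against ENR-organoids was 2.88 ± 0.94 (edgeR adjusted p = 0.0295). A block for code prefix ended the call (2.59, edgeR adjusted p = 0.0594), as did thinning each cell to 10000 UMIs (1.99, adjusted p = 0.137), and without Hyper 1, ENR 1 or ENR 3 it was 1.45, 2.47 and 2.58 (adjusted p = 0.118, 0.0902 and 0.0869). Against -VE-organoids it was 1.79 ± 1.00 (adjusted p = 0.174). Col9a3 overlaps Tcfl5 on the other strand. Cell Ranger, with which the reads were processed, by default counts reads in the sense direction of a gene, and the settings used are not given in the sources used here.

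Col16a1, a FACIT collagen found near basement membranes, was at 0.123, 0.0895 and 0.0449 CPM in ENR 1, 2 and 3, at 0.263 and 0.118 CPM in -VE 1 and 2, and at 1.78, 1.22 and 0.620 CPM in Hyper 1, 2 and 3. It rose by 3.67 ± 0.53 (edgeR adjusted p = 0.000579) and 2.56 ± 0.56 (adjusted p = 0.00664), the latter lost without -VE 2 (2.08, adjusted p = 0.0599). A few cells carried much of it, since the 10 cells with most Col16a1 UMIs held 38.5%, 32.2% and 51.8% of them in Hyper 1, 2 and 3, with up to 32 UMIs in 1 cell. Col20a1, whose function is little known, rose by 2.30 ± 0.35 (edgeR adjusted p = 0.000754) and 2.18 ± 0.39 (adjusted p = 0.00260), from at most 0.124 CPM in the 5 other libraries to 0.421 to 0.556 CPM. Col12a1 was not called (0.90 ± 0.50 and 0.68 ± 0.53), although its 3 Hyper libraries, at 0.120 to 0.123 CPM, lay above all others.

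Col8a1 encodes a chain of type VIII collagen, a short-chain collagen that builds the hexagonal lattice under the corneal endothelium. It was at 0.0411, 0.0570 and 0.0224 CPM in ENR 1, 2 and 3, at 0.0328 and 0.00588 CPM in -VE 1 and 2, and at 1.54, 1.16 and 0.820 CPM in Hyper 1, 2 and 3. The groups were far apart, with log2 fold changes of 4.67 ± 0.47 (edgeR adjusted p = 8.83e-05) and 5.85 ± 0.61 (adjusted p = 0.000228). Col8a2, which encodes the other type VIII chain, had 8 UMIs in Hyper-organoids and 1 in each other group.

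Col18a1 encodes a basement membrane collagen of the multiplexin group, whose end fragment is known as endostatin. It was at 0.432, 0.212 and 0.337 CPM in ENR 1, 2 and 3, at 0.427 and 0.571 CPM in -VE 1 and 2, and at 2.56, 1.78 and 5.31 CPM in Hyper 1, 2 and 3. It rose by 3.18 ± 0.46 (edgeR adjusted p = 0.000583) and 2.54 ± 0.51 (adjusted p = 0.00456). Hyper 3 stood highest, and it is also the library with most revival stem cells (26 cells). The part of that class in the Hyper 3 level was not tested. Slc19a1 lies on the other strand of Col18a1. The other multiplexin, Col15a1, was not tested, with 6 UMIs in Hyper-organoids, 18 in ENR-organoids and 9 in -VE-organoids.

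Of 3 membrane-spanning collagens tested, only Col25a1 was called. Col25a1, a transmembrane collagen first found in amyloid plaques, was at 0.113, 0.0732 and 0.0449 CPM in ENR 1, 2 and 3, at 0.0246 and 0.0176 CPM in -VE 1 and 2, and at 0.462, 0.478 and 0.377 CPM in Hyper 1, 2 and 3. It rose by 2.37 ± 0.34 (edgeR adjusted p = 0.000507) and 4.21 ± 0.45 (adjusted p = 0.000262). Col17a1, the collagen of hemidesmosomes, was not called at -0.25 ± 0.66 and -0.11 ± 0.71, and Col23a1 was not called at 0.69 ± 0.48 and 1.23 ± 0.55. Col7a1, which forms the fibrils that anchor the basement membrane, was at 0.134 to 0.220 CPM in ENR-, 0.0882 and 0.0903 CPM in -VE- and 0.183 to 0.3105 CPM in Hyper-organoids. It was called only against -VE-organoids, at 1.23 ± 0.38 (edgeR adjusted p = 0.0288), against 0.25 ± 0.32 for ENR-organoids (adjusted p = 0.543). The call was lost without -VE 1, -VE 2 or Hyper 1 (edgeR adjusted p = 0.100, 0.136 and 0.0731) and with DESeq2 (adjusted p = 0.0725).

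Col26a1 and Col28a1 were not called. Col26a1 was at 0.157 to 0.382 CPM in ENR-organoids, at 1.31 and 0.429 CPM in -VE 1 and 2, and at 2.08, 0.225 and 0.299 CPM in Hyper 1, 2 and 3. The high libraries are the Hyper and -VE libraries with prefix 2, both at passage 1, and Hyper 1 held 288 UMIs in 172 cells. Of the 4 type VI genes, which form beaded microfibrils, 0 passed the filter, and each had at most 10 UMIs in an organoid group. Col5a2 had 0 UMIs in all 8 organoid libraries.

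**Figure D2:**
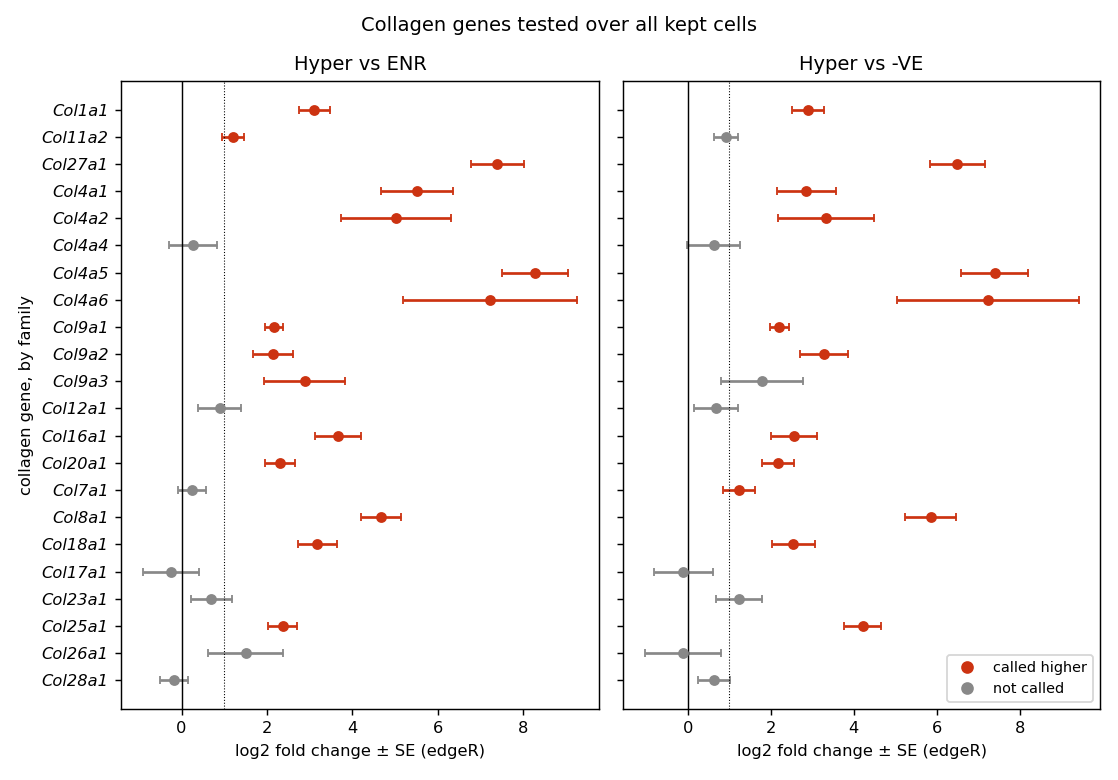
Log2 fold change with its standard error (edgeR) of the 22 collagen genes tested over all kept cells, for Hyper- against ENR-organoids (left, 3 against 3 libraries) and Hyper- against -VE-organoids (right, 3 against 2 libraries), with the dotted line at a 2-fold difference. Points in red were called higher, 15 on the left and 14 on the right, and the fitted Col4a6 value rests on groups at 0 UMIs and is no bound.

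Between -VE- and ENR-organoids, which differ in the Hyper medium without VPA and EPZ6438, 0 of the 22 genes were called, where 2.55% of all genes were. Of the 22, 3 had an unadjusted p under 0.05 with edgeR (Col25a1, Col7a1 and Col4a1), and DESeq2 called 0, with 2 at an unadjusted p under 0.05. Log2 fold changes of -VE- over ENR-organoids ran from -1.84 ± 0.50 for Col25a1 (edgeR adjusted p = 0.0631) to 2.66 ± 1.06 for Col4a1 (adjusted p = 0.176), with a median of 0.17. Their standard errors reached 1.83 for Col4a2, so a difference of several fold in the rarest genes was not detectable at this depth.

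Within the class that the annotation names stem, 13 collagen genes were tested, and 10 were called higher against ENR- and 10 against -VE-organoids (15.2% and 14.7% of all genes). In the transit amplifying (TA) class, 17 were tested and 14 called in each comparison (17.2% and 15.5%), or 8 of 19 tested against -VE-organoids without -VE 2 (12.002% of all genes). At a depth thinned to 10000 UMIs per cell 1 and 4 of 5 collagen genes tested were called in stem cells (11.96% and 11.6% of all genes) and 6 and 6 of 7 in TA cells (14.2% and 12.3%). All 10 stem and all 14 TA calls against ENR-organoids were also called over all cells. Each of these classes made up 40.0% to 50% of the cells of each Hyper library. The sums over all cells thus hold largely the same UMIs, and this overlap of calls could hardly fail to appear. The paper reports that stem and TA cells of Hyper-organoids separated clearly from those of ENR-organoids, so these calls compare different clusters of the same class name. Col11a2 against -VE-organoids was called in both classes and Col9a3 in TA cells, although neither was called over all cells. Col27a1 held 0.0775, 0.243 and 0 CPM in stem cells of ENR 1, 2 and 3, 0.129 and 0 CPM in those of -VE 1 and 2, and 7.59, 13.7 and 7.75 CPM in those of Hyper 1, 2 and 3. In TA cells it held 0.0179 to 0.0646, 0.0294 and 0.158, and 5.59 to 10.6 CPM, so its levels were high in both classes of all Hyper libraries. In barcodes outside the annotation Col27a1 was at 9.76, 13.5 and 7.09 CPM in Hyper 1, 2 and 3. The part of free RNA in the class levels was not tested.

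Classes were clustered on these same cells, so levels between classes are given as a description. Whether collagen genes were among the genes used for clustering is not given in the sources used here. Col18a1 was highest in revival stem cells, the class marked by Clu, Anxa1 and Ly6a, with 41.2, 111 and 98.0 CPM in Hyper 1, 2 and 3 and 30.5 and 42.5 CPM in -VE 1 and 2. ENR-organoids had no cell of this class. In Hyper-organoids 45 of 8318 cells were in it, and they held 233 Col18a1 UMIs, 21.5% of the group's total. The level there was 95.4 CPM (exact Poisson 95% interval 83.5 to 108) beside 2.19 CPM in stem and 2.01 CPM in TA cells. All intervals of counts cover counting error only.

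The same few cells held much of the Col4a1 and Col4a2 RNA. In Hyper-organoids revival stem cells had 24.98 CPM of Col4a1 (19.1 to 32.1), 30.2% of its UMIs, and 20.1 CPM of Col4a2 (14.8 to 26.5), 49.0% of its UMIs. Hyper 1, 2 and 3 were unequal, at 15.0, 54.2 and 13.9 CPM of Col4a1 and 18.7, 42.1 and 10.6 CPM of Col4a2 in this class. The class had 5, 14 and 26 cells in these libraries. Over all its cells Hyper 1 held 30 UMIs of Col4a1 and 9 of Col4a2, so its class values rest on few UMIs. All 7 Col4a2 UMIs of -VE-organoids lay in this class too, 6 of them in 1 cell. Col8a1 reached 10.2 CPM there, but all 25 UMIs came from Hyper 2. Without the revival stem cell class 21 collagen genes were tested and 14 called higher against ENR- and 13 against -VE-organoids (18.1% and 16.2% of all genes), and Col4a2 no longer reached the test.

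In goblet cells Col18a1 was at 1.96 to 5.12 CPM in ENR-, 2.40 and 3.23 CPM in -VE- and 3.62 to 6.55 CPM in Hyper-organoids. ENR and Hyper libraries overlapped in goblet cells, unlike in the sums over all cells, and the -VE libraries lay below all 3 Hyper libraries. In ENR-organoids goblet cells held 44.9% of all Col18a1 UMIs, and in Hyper-organoids 8.29%.

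Enteroendocrine cells, the hormone-secreting class, held most or much of the UMIs of several rarer collagens. Col11a2 was at 11.6, 19.7 and 5.14 CPM in this class of ENR 1, 2 and 3, at 9.94 and 10.9 CPM in that of -VE 1 and 2, and at 5.27, 8.35 and 5.28 CPM in that of Hyper 1, 2 and 3. In stem cells it was instead at 0 to 0.243 CPM in ENR- and 0.551 to 0.925 CPM in Hyper-organoids. The 212 enteroendocrine cells of ENR-organoids thus carried 58.5% of all Col11a2 UMIs of that group, and the 290 of Hyper-organoids 17.1%. Col9a2 was at 4.34 CPM there in ENR-organoids (16 UMIs, 94.1% of its total, with the 6 of ENR 2 in 1 cell), 1.61 CPM in -VE-organoids (6 UMIs, 85.7%) and 2.69 CPM in Hyper-organoids (18 UMIs, 18%), where TA cells held 52 and stem cells 28 of its 100 UMIs. Col17a1 was at 4.07 CPM in ENR-, 5.09 CPM in -VE- and 2.98 CPM in those of Hyper-organoids, 55.6% to 82.6% of its UMIs. Col9a3 was high in this class in ENR 2 (24 UMIs) and at 0 in ENR 1 and ENR 3, and -VE 1 and 2 held 14 and 27 UMIs there.

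**Figure D3:**
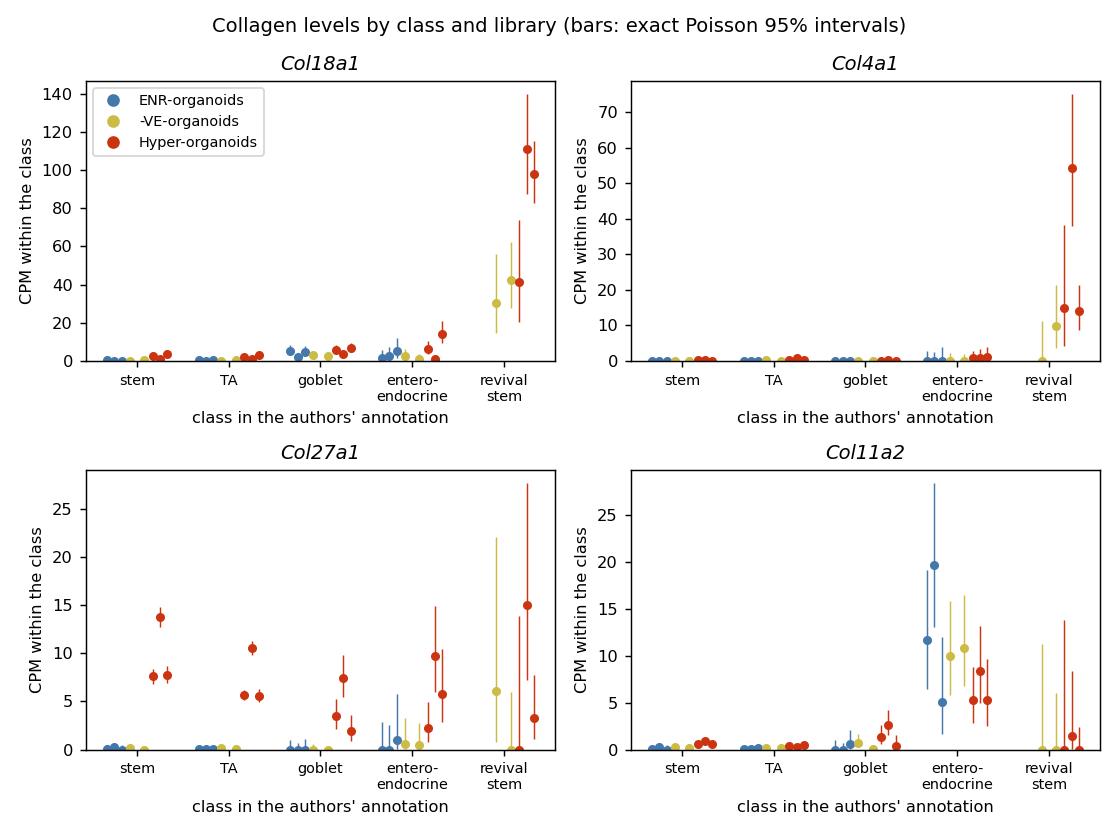
Level in CPM within a class of the authors' annotation, 1 point per organoid library with its exact Poisson 95% interval, for Col18a1, Col4a1, Col27a1 and Col11a2 in stem, TA, goblet, enteroendocrine and revival stem cells. Col18a1 peaks in revival stem cells, as does Col4a1 in the Hyper libraries, Col27a1 is raised across stem and TA cells of all 3 Hyper libraries, and Col11a2 is highest in enteroendocrine cells.

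Enzymes that build collagen were followed in lists of general knowledge. Their counts stand beside 18.2% and 16.1% of all genes called higher against ENR- and -VE-organoids, and 1.35% in -VE- over ENR-organoids. Of 22 genes for collagen biosynthesis and folding, 19 were tested, and 10 rose against ENR-, 8 against -VE-organoids and 2 in -VE- over ENR-organoids, with 0 lower in any. The median log2 fold changes of the list were 1.20, 0.56 and 0.65. The lysyl hydroxylase Plod2 was at a mean of 54.1 CPM in Hyper-, 6.94 CPM in -VE- and 2.27 CPM in ENR-organoids, and rose by 4.45 ± 0.37 against ENR-organoids (edgeR adjusted p = 3.41e-05). Plod1 rose by 3.12, the prolyl 3-hydroxylases P3h2, P3h1 and P3h3 by 6.09, 3.13 and 2.26, the related P3h4 by 2.53, the galactosyltransferase Colgalt2 by 3.54 and the prolyl 4-hydroxylase chain P4ha2 by 1.28. In ENR 1, 2 and 3, P3h2 had 1, 2 and 0 UMIs and Colgalt2 had 2, 1 and 0. Their fold changes thus rest on few counts, with standard errors of 0.55 and 0.70. Plod1 and Plod2 were also the 2 called in -VE- over ENR-organoids, at 1.14 ± 0.15 and 1.61 ± 0.38. P4hb and Ppib, which also serve the folding of other secreted proteins, were at -0.28 ± 0.07 and 0.21 ± 0.08 against ENR-organoids.

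Of 15 genes for propeptide processing and crosslinking, 7 were tested, and 5 rose in each Hyper comparison and 0 in -VE- over ENR-organoids. They were Pxdn, which crosslinks type IV collagen (4.98 ± 0.81 against ENR-organoids), the procollagen enhancer Pcolce2 (4.08 ± 0.51), the procollagen proteinases Adamts3 (3.13 ± 0.73) and Bmp1 (3.02 ± 0.22), and the lysyl oxidase Loxl2 (1.47 ± 0.27). Adamts3, with 2, 2 and 0 UMIs, and Pxdn, with 5, 1 and 1, were rare in ENR 1, 2 and 3. Of 18 genes for degradation, 10 were tested, with 7, 5 and 2 called higher and 0 lower. Against ENR-organoids these were the inhibitors Timp1 (4.79), Timp2 (3.09), Timp4 (1.88) and Timp3 (1.59) and the proteases Mmp11 (2.77), Mmp7 (1.37) and Mmp15 (1.15). All 4 inhibitors of proteases are in this list, so its direction does not describe degradation alone. Timp1 (2.63 ± 0.29) and Mmp7 (1.27 ± 0.13) were also called in -VE- over ENR-organoids. Of 8 collagen receptors 4 were tested, and none reached a 2-fold difference in any comparison. Against ENR-organoids the receptor kinase Ddr1 was at 0.87 ± 0.08 (edgeR adjusted p = 3.84e-05), and the integrin chains Itga10, Itga1 and Itga2 at 0.77 ± 0.30, 0.01 ± 0.10 and -0.09 ± 0.05.

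An Epcam UMI, a marker of epithelium, was in 98.6% to 99.9% of the cells of each organoid library. A list of 11 fibroblast and muscle markers summed to 6.395 to 16.1 CPM in ENR-, 5.48 and 10.1 CPM in -VE- and 20.1 to 90.7 CPM in Hyper-organoids, with 4 or 5, 5 or 7, and 8 or 9 of 11 markers detected. Without Vim the sums were 0.359 to 0.537, 0.241 to 0.361 and 0.760 to 0.964 CPM. Markers of fibroblasts and muscle moved unequally. Des had 25, 43 and 32 UMIs in Hyper 1, 2 and 3 against 0 or 1 in each other library, Pdgfra 37, 14 and 9 against 0 to 4, Mfap5 13, 5 and 7 against 0 to 2, and Dcn 11, 5 and 6 against 0 or 1. Pdgfrb, at 26 to 34 UMIs in Hyper libraries and 28 to 60 in the others, was not higher. Dpt was at 0 in all Hyper libraries, Lum in Hyper 2 and 3 and Acta2 in Hyper 1 and 2, and the leukocyte marker Ptprc was at 0 in all 3. Endothelial markers summed to at most 0.753 CPM, leukocyte markers to at most 1.05 CPM and glial markers to at most 2.14 CPM in any organoid library. The counts of called collagen genes were 15 and 14 also without the 0 to 3 cells per library that held 2 non-epithelial markers. Those markers were Pdgfra, Pdgfrb, Dcn, Lum, Thy1, Pecam1, Cdh5 and Ptprc, so Des, Mfap5 and Vim were not among them. Leaving out so few cells could hardly change a count, so the equal counts do not tell where the UMIs came from. The part of the markers that moved with Hyper-organoids in these results was not tested.

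In colon the 38 genes summed to 14.5 CPM in normal crypts (289 UMIs) and 56.5 CPM in DSS crypts (1832 UMIs). Without cells holding 2 non-epithelial markers the order turned, with 12.4 CPM in the normal and 10.2 CPM in the DSS library. It did not turn without cluster 18 of the annotation, or without the clusters and cells with Ptprc (sums given below). Cluster 18 held 53611 UMIs in the normal and 172328 in the DSS library. Of the filter's 8 markers, Lum, Pdgfra and Pdgfrb had 0 normal UMIs there and 45, 2 and 6 DSS UMIs. In CPM of cluster 18, Dcn was at 6939 in the normal and 3424 in the DSS library and Pecam1 at 74.6 and 75.4. Ptprc was at 280 and 395 and Thy1 at 149 and 377, and Cdh5 had 0 UMIs in both. Whether the filter acted unequally on the 2 libraries was not tested, and the order depended on which cells were left out. Among 13 collagen genes with at least 20 UMIs in either library, 9 were at least 2-fold higher in the DSS library and 0 at least 2-fold lower, where 7.41% of 13061 genes were higher and 2.58% lower by that measure. Only Col3a1, Col6a1, Col8a1 and Col16a1 reached 20 UMIs in the normal library, so the other 9, among them 8 of the 9 higher genes, entered by their UMIs in the DSS library alone, which favours genes that are higher there. Each group is 1 library, so these values compare 2 libraries and not the conditions.

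Col3a1 was at 2.61 CPM (1.95 to 3.43) in the normal and 20.8 CPM (19.3 to 22.4) in the DSS library, a ratio of 7.96 (6.00 to 10.8). Col1a1 was at 0.301 and 9.32 CPM (ratio 30.9, 14.0 to 84.9) and Col1a2 at 0.603 and 8.46 CPM (14.0, 7.90 to 27.5). Col5a1, a chain of type V collagen that joins type I fibrils, had 1 and 37 UMIs (22.7, 3.83 to 922). Smaller ratios were found for the type VI chains Col6a1 (1.52, 0.901 to 2.66) and Col6a2 (2.03, 0.976 to 4.61), for Col5a2 (2.58, 0.947 to 8.76) and for the FACIT gene Col14a1 (1.92, 0.840 to 4.93), whose intervals include a ratio of 1.

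These fibrillar and type VI UMIs came from a handful of cells. The most in 1 DSS cell was 230 of 302 UMIs for Col1a1 and 214 of 274 for Col1a2. It was 29 of 37 for Col5a1 and 365 of 674 for Col3a1. The intervals above count each UMI as independent, so they do not cover the spread between cells. In the DSS library 5 cells held 3 or more of Col1a1, Col1a2, Col3a1, Col5a1, Col5a2, Col6a1 and Col6a2, and they carried 1386 of the library's 1393 UMIs of these genes (99.5%). In the normal library 2 cells carried 102 of 107 UMIs (95.3%). These cells also held 590 of 598 and 372 of 372 UMIs of Dcn, a proteoglycan gene of fibroblasts, and none of them held a Ptprc UMI. All but 1 lay in cluster 18 of the annotation, which had 33 DSS and 11 normal cells, 63.6% of them with Ptprc in both libraries, so cluster 18 as a whole is not a fibroblast group. Within these few cells Col3a1 made up 14113 CPM in the DSS and 2203 CPM in the normal library, Col1a1 6381 and 229 CPM, and Col6a1 1078 and 964 CPM, from 47331 and 21792 UMIs in all. The number of such cells and what they held differ between the libraries, and with 5 and 2 cells in 1 library each neither can be tested. Without cluster 18 the collagen sums were 8.41 CPM in the normal and 10.4 CPM in the DSS library.

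Col4a1 stayed higher in the DSS library without cluster 18. It was at 0.402 CPM (8 UMIs) in the normal and 2.75 CPM (89 UMIs) in the DSS library (ratio 6.84, 3.32 to 16.3), and without cluster 18 the counts were 7 and 62 UMIs (5.46, 2.50 to 14.1). Without cells holding 2 non-epithelial markers it was at 0.358 and 1.89 CPM. In the DSS library 33 of its UMIs lay in 23 cells of cluster 4 and 16 in 7 cells of cluster 5, where Epcam was found in 100% and 98.7% of cells. Epcam was also in 61.6% of the DSS cells of cluster 0, of which 89.9% held Ptprc, so its presence does not set epithelial cells apart here. Cluster 4 of the DSS library further held 31 of 52 UMIs of the muscle marker Acta2, in 8 cells, and 12 of 68 of the pericyte marker Pdgfrb. Pdgfrb was at 2.40 CPM there and at 2.10 CPM in the whole library. Of the other fibroblast and muscle markers, cluster 4 held 2 of 598 UMIs of Dcn, 1 of 24 of Dpt, 1 of 231 of Thy1 and 15 of 1604 of Vim. Des, Lum, Mfap5, Myh11 and Pdgfra had 0 UMIs there. The part of those markers in the Col4a1 level was not tested. Cluster 4 had 230 DSS but 11 normal cells, and in normal cells Col4a1 had 0 UMIs in both clusters, which allows up to 13.1 CPM in cluster 4 and 1.77 CPM in cluster 5 (3 UMIs). The DSS levels were 6.60 CPM (4.54 to 9.27) and 4.63 CPM (2.65 to 7.53), so a difference within cluster 4 was not detectable at this depth. Col18a1 had 3 UMIs in the normal and 22 in the DSS library (4.51, 1.35 to 23.5), of which 2 and 9 lay in cluster 18. Without cluster 18 the Col18a1 counts were 1 and 13 UMIs (8.01, 1.20 to 340). Col15a1 had 4 and 20 UMIs (3.07, 1.03 to 12.4), 10 of the latter in 1 cell of cluster 18.

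Col16a1 and Col8a1, both higher in Hyper-organoids, did not separate the 2 colon libraries. Col16a1 was at 2.91 CPM in the normal and 3.21 CPM in the DSS library (ratio 1.10, 0.792 to 1.55), spread over 53 and 94 cells, and Col8a1 at 2.06 and 1.82 CPM (0.884, 0.584 to 1.35). Col8a1 lay mostly in cluster 5 (25 of 41 normal and 38 of 59 DSS UMIs) and cluster 16 (12 and 10 UMIs). Col27a1 had 0.1005 and 0.154 CPM in normal and DSS colon, and Col9a1 had 0 UMIs in both.

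**Figure D4:**
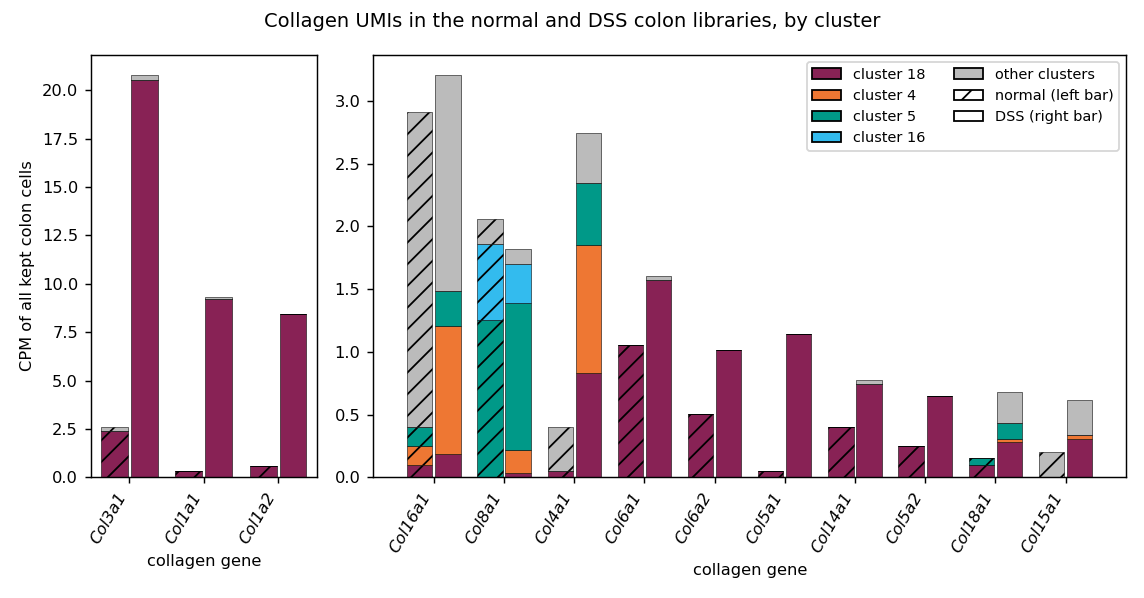
Level in CPM of all kept colon cells for the 13 collagen genes with at least 20 UMIs in either library, as stacked bars by cluster of the annotation, normal library left and hatched, DSS library right, with 1 library each and separate vertical axes starting at 0. Fibrillar and type VI bars are made almost wholly of cluster 18, while Col4a1 in the DSS library is spread over clusters 18, 4 and 5, and Col8a1 over clusters 5 and 16.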

How the data were processed

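The authors made droplet 3′ libraries (10x Genomics kit V3) and counted reads with Cell Ranger 3.0.0 and analysed cells with Seurat 3.1.4, on build mm10, per the labels' processing notes. The deposited values are raw UMI counts per gene and barcode, not normalized, with a table of 25204 kept cells and their classes. Kept cells had at least 501 genes and at most 20% mitochondrial UMIs. Doublets were not removed here, and leaving out the 5% of cells with most UMIs was an alternative. 0 columns lacked a sample.

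UMIs were summed per gene and library. A single model over all 8 organoid libraries was fitted in edgeR 4.0.16 (R 4.3.3) with TMM, filterByExpr, glmQLFit and glmQLFTest and Benjamini-Hochberg adjustment over all genes tested, and was checked on simulated data for Hyper- against ENR-organoids (15632 genes), where 38% of genes changed 2-fold and 100% of those changed 4-fold or more were called. The changed genes left out those with the lowest means, and a true 2-fold change lies on the limit itself, so many such changes are not called. Standard errors are the log2 fold change divided by the square root of F. Calls needed a 2-fold difference with an adjusted p below 0.05. Alternatives were DESeq2 1.42.0, RLE factors, other filters and cell sets (among them the study's stated limits of 1500 genes and 25% mitochondrial UMIs), thinning to 10000 UMIs, a block and leaving out each library. ENR and Hyper libraries whose codes share a prefix (2, 6 or C) deviated from their group means together (r = 0.251, 0.210 and 0.522 over 16037 genes). With unlike prefixes, ENR 2 and Hyper 1 had 0.185 and ENR 1 and Hyper 2 had 0.0751, and the other ENR and Hyper pairs were negative. Of pairs with a -VE library of the same prefix, ENR 1 had 0.185, ENR 2 had 0.0109, Hyper 1 had 0.200 and Hyper 2 had 0.136. Deviations sum to 0 within a group, and those of the 2 -VE libraries mirror each other. Negative values for unlike prefixes are thus partly forced. The pairing was read from the data, which set C apart more clearly than 2 from 6. What the prefix marks is not given in the sources used here. Adding the prefix as a replicate block gave 14, 15 and 0 called collagen genes, beside 18.5%, 16.3% and 1.41% of all genes called higher.

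Named genes were those called in any comparison over all cells or at a mean of at least 2 CPM in an organoid group, in colon those with at least 20 UMIs in either library, and up to 8 called genes per list and contrast. Other genes named were chosen after their values were seen. The collagen genes, families, marker lists and enzyme lists were chosen with earlier results of these data known. Gene positions are from GENCODE vM21 (GRCm38), and promoter sequences from RefSeq (GRCm38).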

Additional observations from a re-analysis of the deposited data

Results flagged for a closer look

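Barcodes outside the authors' annotation, which enter no comparison above, also held collagen UMIs. All collagen genes together were at 29.3, 28.4 and 25.5 CPM in these barcodes of Hyper 1, 2 and 3 and at 5.04 and 5.15 CPM in those of -VE 1 and 2, above the 2.61 to 4.03 CPM in those of the ENR libraries. In colon they were at 9.91 CPM in the DSS and 7.02 CPM in the normal library. These levels are near those of the kept cells in Hyper-organoids (22.1 to 25.7 CPM), and in DSS colon they are below those of the kept cells (56.5 CPM). Whether free RNA, damaged cells or cells left out by the filter gave these UMIs was not tested.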

How the results depend on the processing

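Hyper- against ENR-organoids gave 13 to 15 called collagen genes when 1 library was left out, Hyper- against -VE-organoids 9 to 14, and -VE- against ENR-organoids 0, with 20 to 25 tested and 16.8% to 18.2%, 11.4% to 16.2% and 0.368% to 1.65% of all genes called higher. In stem cells the ranges were 7 to 10 in both comparisons, with 11 to 17 tested (13.5% to 15.0% and 10.4% to 15.0% of all genes), and in TA cells 12 to 14 and 8 to 14, with 15 to 19 tested (16.2% to 17.2% and 12.002% to 15.9%). The lowest values in the -VE comparisons, 9 over all cells and 8 in TA cells, came without -VE 2, which leaves 1 -VE library that is assumed to vary like the other groups. Thinning each cell to 10000 UMIs left 5 collagen genes tested in stem and 7 in TA cells, with 1 and 4 called in stem cells (against ENR- and -VE-organoids) and 6 and 6 in TA cells, beside 11.6% to 14.2% of all genes. Requiring 10 CPM or more in 2 libraries left 0 collagen genes to test and gave no value. The code prefix as a replicate block gave 14, 15 and 0 called genes (18.5%, 16.3% and 1.41% of all genes called higher) and changed no call over all cells other than Col9a3 and Col11a2. Col7a1 against ENR-organoids, not called, ran from -0.0292 (without Hyper 1) to 0.43 (without ENR 2) when 1 library was left out, and Col26a1 was called lower against -VE-organoids without Hyper 1, over all cells (beside 13 genes called higher) and in TA cells (beside 12). In stem cells without ENR 1, 7 genes were called higher against ENR-organoids and Col28a1 lower. Of single-gene fold changes, 272 kept direction and side of the limits under alternatives other than leaving out a library, 5 were no longer called and 1 was newly called, and on leaving out a library 228 kept both and 19 were no longer called, each named above. The colon sum was 8.35 CPM in the normal and 10.5 CPM in the DSS library without clusters over 50% Ptprc and other Ptprc cells, 12.4 and 10.2 CPM without cells holding 2 non-epithelial markers, 8.41 and 10.4 CPM without cluster 18, an alternative added after seeing the data, and 11.4 and 41.7 CPM over all barcodes. Leaving out the revival stem cell class was also added after seeing the data. Rare genes limit the depth here, since a group's floor of 3 UMIs was 0.00970 CPM in ENR- and 0.0103 CPM in -VE-organoids.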
